A study of Sus scrofa with 6 samples.

Results

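Fatty acid uptake and binding genes of pig skeletal muscle are described here. They are the intracellular carriers FABP3, FABP4 and FABP5, the lipase LPL and the membrane receptor CD36. Their probes were chosen by name, as every non-control probe whose gene name or description carried 1 of these symbols or the words fatty acid-binding protein, lipoprotein lipase or platelet glycoprotein 4. The choice found 9 of the 43603 probes on the array, 7 of them named for the 5 genes and 2 by their description only. The 5 genes are among 4016 that could be named. Longissimus dorsi muscle (LDM, the glycolytic muscle of the comparison) and psoas major muscle (PMM, the oxidative muscle) were measured on 3 one-colour Agilent arrays each. The RNA of both muscles came from 3 female Landrace pigs, 210 days old and weaned at day 28, whose feed was withdrawn 24 h before slaughter. No animal was treated, and feeding and feed withdrawal were shared by all of them. Replicate numbers 1, 2 and 3 occurred in each muscle, and arrays of the same number were scanned on the same day.

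Working muscle takes much of its fatty acid from the blood. LPL, bound at the capillary wall, releases fatty acids from the triglycerides of lipoproteins, and CD36 helps long-chain fatty acids across the plasma membrane. Inside the cell, small carrier proteins of the FABP family bind them and bring them to mitochondria, lipid droplets or the nucleus. FABP3 is the form of heart and skeletal muscle, and FABP4 that of fat cells, also found in macrophages and capillary endothelium. FABP5 was first known from skin and occurs in many tissues.

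Each probe is 60 bases long, and a value belongs to its probe rather than to the whole gene. The first 30 bases of the FABP3 and FABP4 probes are shown because these probes stand for the muscle form and the fat form. Those of 2 CD36 probes are shown because they read different stretches under 1 gene name. No letter is capitalized, since no motif is marked.
FABP3 probe: attttgtaaaaatctactttggggatattc
FABP4 probe: ccactaattaggaagcaactaattttcccc
CD36, brightest probe: tttctttctgtcatagtcacctcagaaaga
CD36, dimmest named probe: gtggcagctgtaccccatctctattcaaat
Over their whole length the FABP3 and FABP4 probes shared no run longer than 7 bases, and the longest run shared by any of the 36 pairs of probes was 9 bases. Probes named CD36 shared no run longer than 6 bases with each other, so a short run does not show that 2 probes read different genes. The probes were not compared with transcripts. In the gene table of RefSeq, FABP4 and FABP5 lie on 1 chromosome with only PMP2, another carrier of the family, between them among protein-coding genes. FABP3, LPL and CD36 each lie on another chromosome.

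All values below are normalized log2 signals, that is, log2 of a probe's intensity less the 75th percentile taken over its array, and a change is PMM minus LDM on that scale. Signals of different probes are not set against each other. Of the 9 probes, 8 had signals well above background on each of the 6 arrays and were tested. The remaining probe, named TC337144 and described as an adipocyte fatty acid-binding protein, was well above the background on none, with intensities of 2.32 to 6.20. Between 58.5% and 72.4% of the spots of an array were well above the background, and none was saturated. On all 6 arrays the signals of FABP3, FABP4, FABP5 and the brightest CD36 probe were marked as scaled up from a low-gain scan. Over all 25835 probes tested, limma with Benjamini-Hochberg adjustment called 0 (0.0%) between the muscles, while 691 (2.67%) had an unadjusted p under 0.05. With the replicate number as a block it called 16 (0.0619%), and on the brightest probe of each of 3263 named genes 0 (0.0%) without the block and 199 (6.1%) with it. Of the tested member probes, 7 of 8 were higher in PMM in all 3 replicate numbers, where 17.5% of all probes were.

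FABP3 showed the widest difference of the 5 genes. In LDM its signal, in the order of the replicate numbers here and below, was 6.09, 6.48 and 5.23. In PMM it was 8.78, 8.12 and 7.42. Every PMM array lay above every LDM array, as for 3.18% of all probes. LDM had a mean of 5.94 ± 0.64 (SD, n = 3) and PMM a mean of 8.11 ± 0.68 (SD, n = 3), a change of 2.17 or 4.50-fold. The 95% interval ran from 1.12 to 3.22, and the adjusted p of limma over all probes was 0.999. The exact permutation test of the 6 arrays gave p = 0.1, the smallest that 3 against 3 allows, and that of the 3 pairs gave 0.25, likewise its smallest. Within replicate numbers the change was 2.69, 1.63 and 2.19, so PMM carried 6.45, 3.10 and 4.55 times the signal of its LDM counterpart. In the size of its change FABP3 stood 3rd from the highest of 3263 genes.

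The call on FABP3 depended on the pairing and on whether limma was fitted and adjusted over all probes or over the named genes. With the replicate number as a block the interval narrowed to 1.56 to 2.78 and the limma adjusted p was 0.124 over all probes, whereas over the 3263 genes it was 3.2e-04. The unadjusted p of limma differed too, 2.0e-04 over probes and 3.9e-07 over genes, because the fit over genes estimated its own variances. That call over genes was lost without replicate 3 (adjusted p = 0.107 by limma) or with quantile normalization (0.078), and kept without replicate 1 or 2. Such fits hold 2 pairs. The one without replicate 2 gave FABP3 and FABP4 the same SE, 0.35, so its p rests on a variance shared between genes. Leaving out any single array moved the change within 1.82 to 2.51. The local background around the FABP3 spot was marked as an outlier by the scanner software on 3 of 3 PMM arrays and 0 of 3 LDM arrays. That background is not part of the processed signal, and its part in the result was not tested.

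**Figure D1:**
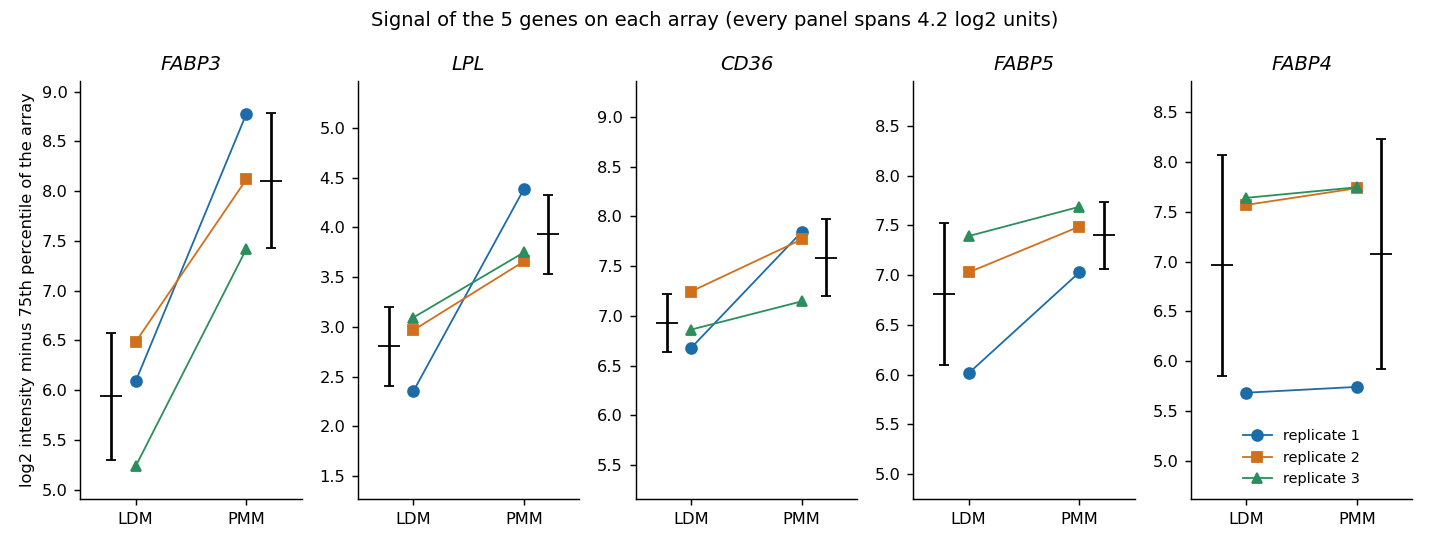
Normalized log2 signal (log2 scale, relative to each array's 75th percentile) of the brightest probe of FABP3, LPL, CD36, FABP5 and FABP4 in LDM and PMM. Points are single arrays, lines join arrays of the same replicate number, and black marks show mean ± SD (n = 3). FABP3 and LPL do not overlap between the muscles, whereas the FABP4 lines are flat and replicate 1 lies low in both muscles.

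FABP4, the fat-cell form, was nearly level between the muscles and wide apart between replicate numbers. Its signal was 5.68, 7.57 and 7.64 in LDM and 5.74, 7.74 and 7.75 in PMM. Both muscles of replicate 1 were low and both muscles of replicates 2 and 3 high, and the groups overlapped. The means were 6.96 ± 1.11 (SD, n = 3) and 7.07 ± 1.16 (SD, n = 3), a change of 0.11 with a 95% interval of -1.47 to 1.70 and a limma adjusted p of 0.99999. The exact permutation test gave p = 0.5. Within replicate numbers the change was 0.06, 0.17 and 0.11, and with the block its interval was -0.28 to 0.51 with a limma adjusted p of 0.834. Without the block the FABP4 interval overlapped that of FABP3 (1.12 to 3.22), and with the block it lay below that of FABP3 (1.56 to 2.78). The sign itself did not hold, as quantile normalization gave -8.4e-04 and normexp background correction -0.07.

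What varied in FABP4 was the replicate number. It held 99.6% of the sum of squares over the 6 arrays, and muscle held 0.359%. For FABP3 the shares were 16.6% and 80.2%, and over 3253 genes the medians were 78.5% for the replicate number and 6.74% for muscle. Replicates 2 and 3 averaged 3.79 times the FABP4 signal of replicate 1 in LDM and 4.01 times in PMM. Markers of cells that can carry FABP4 were counted beside it. All 8 measured macrophage genes, 7 of 7 endothelial genes and 8 of 9 adipocyte genes were lower in replicate 1 than in the mean of replicates 2 and 3 in both muscles, as were 38.5% of 3253 genes, and 0 of 9 slow and 0 of 11 fast fibre genes. The linear signal summed over the adipocyte list went the other way, with 725, 510 and 644 in LDM and 720, 549 and 514 in PMM. That sum followed GPD1, the only gene of the 9 that was higher in replicate 1, by 1.04 in LDM and 1.06 in PMM. The macrophage and endothelial sums were lowest in replicate 1 of both muscles. PPARG, a nuclear receptor that drives fat-cell genes including FABP4, was 0.46, 1.35 and 1.99 in LDM and 0.56, 1.39 and 2.05 in PMM. Their part in the FABP4 values was not tested, and replicate number, animal and scan day cannot be told apart. In RNA from whole muscle, fewer cells of a type and less RNA per cell cannot be told apart either.

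**Figure D2:**
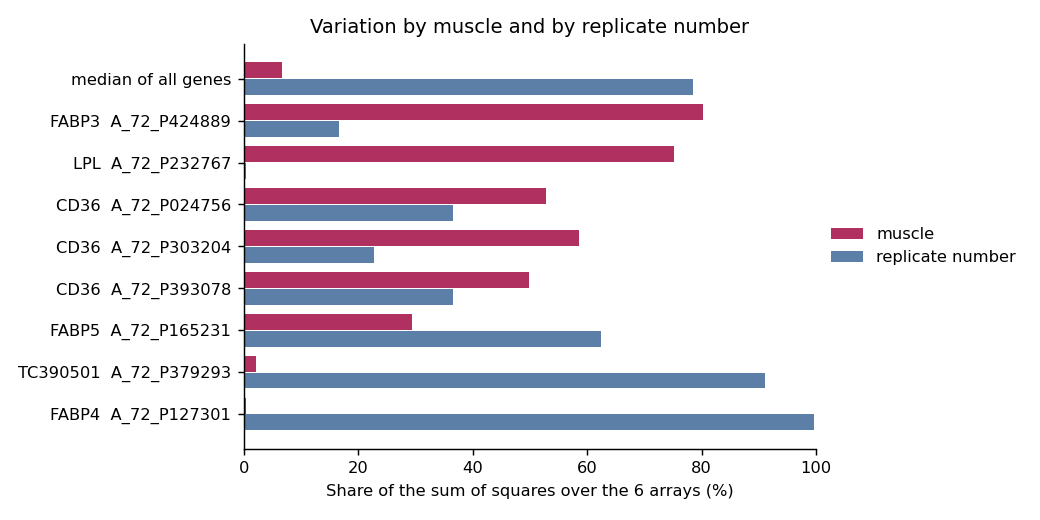
Share of the sum of squares over the 6 arrays (%) that goes with muscle and with replicate number, for the 8 tested member probes and as the median over 3253 genes. Muscle holds most of it for FABP3 (80.2%) and LPL (75.2%), and the replicate number nearly all of it for FABP4 (99.6%). For the named CD36 probes muscle holds 58.5% (brightest), 52.8% and 49.8%.

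The muscle form and the fat form were compared by the change of each rather than by level, since the signals of 2 probes are not comparable. The FABP3 signal minus the FABP4 signal was 0.41, -1.08 and -2.41 in LDM and 3.04, 0.38 and -0.33 in PMM. The groups overlapped across replicate numbers, and within each number the PMM value was the higher. The mean moved by 2.06 between the muscles, so the fold of FABP3 was 4.17 times that of FABP4. Within replicate numbers the 2 changes differed by 2.63, 1.47 and 2.08, a mean of 2.06 ± 0.58 (SD, n = 3). The exact permutation test of the 6 arrays gave p = 0.3, where the smallest possible is 0.1, and that of the 3 pairs 0.25, its smallest, so neither test could have passed 0.05. Against the change of FABP5, LPL and CD36, that of FABP3 was higher by 1.58, 1.04 and 1.51, given as a description.

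FABP5 was higher in PMM within each replicate number, by amounts that differed between them. Its signal was 6.01, 7.03 and 7.39 in LDM and 7.03, 7.49 and 7.69 in PMM, and the groups overlapped. The change was 0.59 with an SE of 0.41, and 1.01, 0.46 and 0.29 within replicate numbers. Leaving out LDM replicate 1 gave 0.19, and leaving out LDM replicate 3 gave 0.88. The exact permutation p was 0.2, and the limma adjusted p with the block was 0.390 over probes and 0.116 over genes. As for FABP4, replicate 1 was the lowest array of each muscle, and the replicate number held 62.5% of the sum of squares against 29.5% for muscle.

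LPL, the lipase, had the next widest difference after FABP3. Its signal was 2.35, 2.97 and 3.09 in LDM and 4.39, 3.66 and 3.75 in PMM, with no overlap. The means were 2.80 ± 0.40 (SD, n = 3) and 3.93 ± 0.40 (SD, n = 3), a change of 1.13 or 2.19-fold, with a 95% interval of 0.33 to 1.93. The exact permutation test gave p = 0.1, again the smallest possible, and limma an unadjusted p of 0.0114 and an adjusted p of 0.99999 over probes. With the block the limma adjusted p was 0.309 over probes and 0.021 over genes. Replicate 1, whose arrays lay on different slides, gave most of the difference, with a change of 2.04 against 0.69 and 0.66 in replicates 2 and 3. Without replicate 1 the blocked change was 0.67 and its limma adjusted p over genes 0.098, and without replicate 3 it was 1.36 and 0.149. Quantile normalization with the block gave 1.15 and 0.126. Without replicate 2 the call stayed, with an adjusted p of 0.0051 by limma. That fit rests on 2 pairs and a variance shared between genes, not on the spread of LPL alone.

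CD36, the receptor for fatty acid uptake, was read by 3 probes that carry its name, and they gave nearly the same change. The brightest was 6.68, 7.25 and 6.86 in LDM and 7.84, 7.77 and 7.15 in PMM. Of the PMM arrays, that of replicate 3 lay below the highest LDM array, so the groups overlapped. The change was 0.66 for this probe and between 0.64 and 0.68 over all 3. Within replicate 1 it was between 1.08 and 1.17 over the 3 probes, within replicate 2 between 0.52 and 0.58, and within replicate 3 between 0.28 and 0.36. The exact permutation p of each probe was 0.2, and that of the pairs 0.25. With the block the limma adjusted p of the brightest probe was 0.382 over probes and 0.092 over genes. Outside the choice by name, a probe for TC405336 annotated as fatty acid translocase had a change of 0.58, and a probe for DR066002, which shares an accession with 2 of the 3 named CD36 probes, had 0.73.

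The probe described as platelet glycoprotein 4, another name of CD36, did not follow the named probes. It belongs to TC390501 and was described from a bovine protein. Its signal was -2.22, -1.06 and -0.60 in LDM and -1.82, -0.66 and -0.87 in PMM. The change was 0.18, positive in replicates 1 and 2 (both 0.40) and -0.27 in replicate 3, and the replicate number held 91.1% of the sum of squares. Whether it reads a CD36 transcript was not tested.

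**Figure D3:**
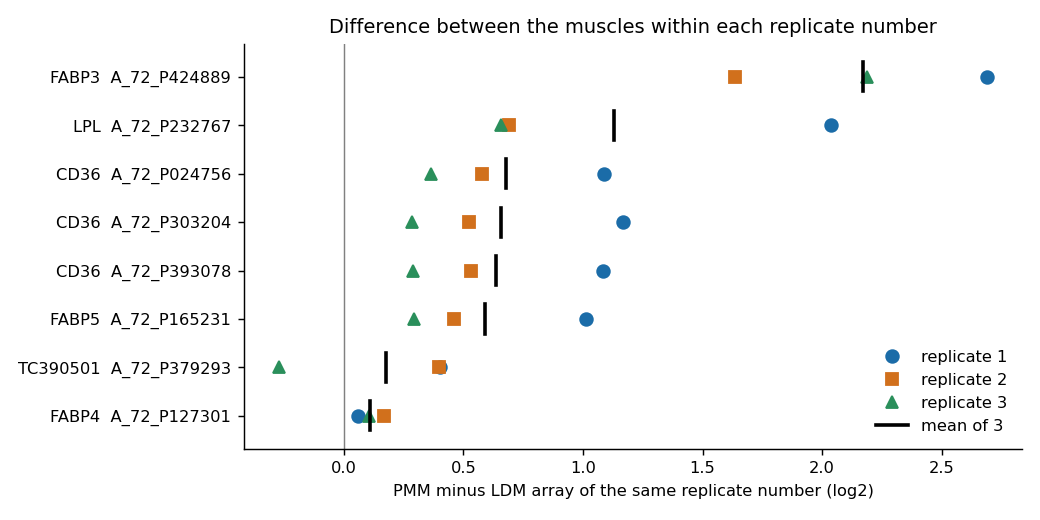
Difference between the PMM and LDM arrays of the same replicate number (log2) for each tested member probe, with the mean of 3 as a black bar. The FABP3 points lie between 1.63 and 2.69, the 3 named CD36 probes show the same order of replicates, and FABP4 lies between 0.06 and 0.17.

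Replicate 1 had the widest difference for FABP3, FABP5, LPL and the 3 named CD36 probes, but not for FABP4. In replicate 1 the muscles lay on different slides, so muscle and slide cannot be told apart there. FABP3 was lowest in replicate 3 in both muscles, and FABP4 in replicate 1 in both. Of the 5 genes, 5 were higher in PMM in all 3 replicate numbers, compared with 21.2% of all genes. Of the 5 genes, 2 passed the adjusted threshold with the block over genes, FABP3 and LPL, where 3.95% of all genes did so in that direction.

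**Figure D4:**
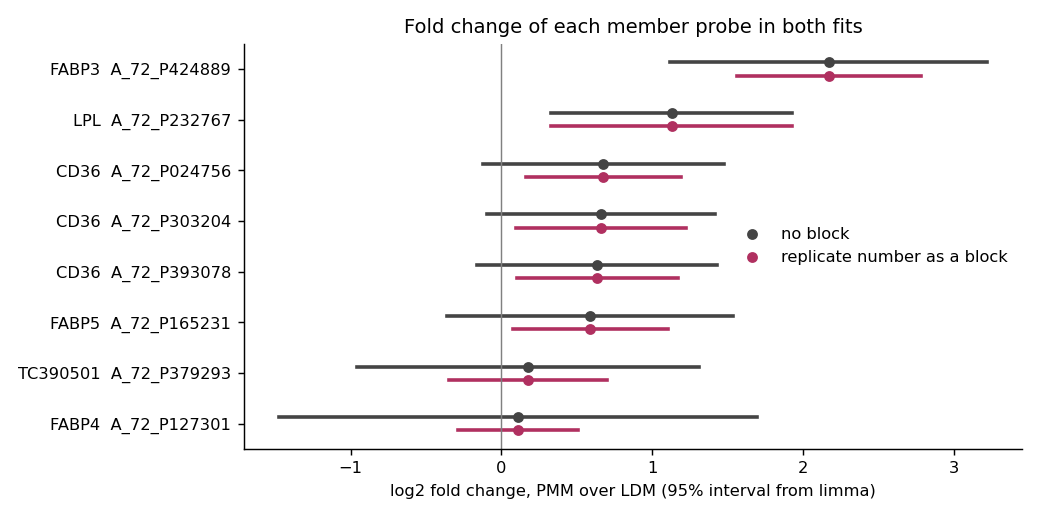
log2 fold change (PMM over LDM) with its 95% interval from limma for the 8 tested member probes, without a block (grey) and with the replicate number as a block (red). The block narrows the FABP3 interval from 1.12 to 3.22 to 1.56 to 2.78, and the FABP4 interval from -1.47 to 1.70 to -0.28 to 0.51.

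Of the FABP genes outside the choice by name, FABP6, the ileal form, was the only tested gene, with a change of 0.27 (SE 0.53) for its brightest probe. FABP2, the intestinal form, was well above the background on 0 arrays and FABP7, the brain form, on 2. FABP1, the liver form, was well above the background on LDM replicate 3 only, at 0.03, against -7.29 to -6.01 on the other 5 arrays. APOC3, a liver apolipoprotein that restrains LPL, was likewise 1.54 on that array against -2.04 to -1.48 elsewhere. Without LDM replicate 3 the changes of FABP3 and LPL were 1.82 and 1.27.

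Other genes of fatty acid handling were mostly, but not uniformly, higher in PMM. Of a list of 73 genes that leaves out the 5 members, 43 had a named probe and 37 were tested. Of these, 23 were higher and 14 lower in PMM, where 49.7% of all 3263 genes were higher. The median change was 0.22 against -0.002 over all genes. Leaving out single arrays moved that median between 0.05 (without LDM replicate 1) and 0.34 (without LDM replicate 3). With median centring 20 of the 37 were higher, where 39.9% of all genes were. With the slide as a block 19 were higher, with a median of 0.05, where 40.3% of all genes were. Without LDM replicate 3 the count was 26. The muscles did not overlap in 7 of the 37, compared with 7.01% of all genes. Without a block limma called 0 of the 37, with 4 at an unadjusted p under 0.05. With the block it called 7, of which 5 were higher and 2 lower, where 3.95% of all genes were called higher and 2.15% lower. With the block and quantile normalization it called 0, and with the block but without replicate 1, 2 or 3 it called 4, 4 and 0.

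The 5 genes of the list that rose in the blocked fit over genes were HADHB, CPT1B, ACADM, ACADL and PPARGC1A. HADHB, the beta subunit of the trifunctional protein of beta-oxidation, was 5.84, 5.92 and 5.03 in LDM and 7.41, 7.14 and 6.17 in PMM, a change of 1.31 (SE 0.18 with the block, limma adjusted p = 0.0017). CPT1B, the muscle enzyme that admits long-chain fatty acids to mitochondria, had a change of 1.16 (limma adjusted p = 0.0053), with no overlap between the muscles. ACADM and ACADL, the medium- and long-chain acyl-CoA dehydrogenases, had changes of 0.88 and 0.77 with overlapping groups. PPARGC1A, a coactivator of mitochondrial genes, had a change of 0.91 with no overlap. HADHB and CPT1B kept the call without replicate 1 and without replicate 2, ACADM without replicate 1 only, and PPARGC1A and ACADL in neither.

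The 2 genes that fell in the same fit were CRABP1 and APOE. CRABP1, a retinoic acid carrier of the same protein family as FABP3, was -0.18, -0.90 and -0.92 in LDM and -2.09, -1.88 and -2.76 in PMM, a change of -1.57 (SE 0.22 with the block, limma adjusted p = 0.0016). Every PMM array lay below every LDM array. APOE, a lipoprotein component that lipoprotein receptors bind, had a change of -0.71, also with no overlap. The call on CRABP1 stayed without replicate 1 or 2, and that on APOE in neither.

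The next genes of the list by their p, which act in uptake, activation, storage or gene control, did not pass the adjusted threshold in that fit. PNPLA2, the lipase that starts the breakdown of stored triglyceride, had a change of 0.81 and a limma adjusted p of 0.053. DBI, which carries acyl-CoA, had 0.66 and 0.058, and both had no overlap between the muscles. ACSL1, which couples fatty acids to coenzyme A, had 0.68 and an adjusted p of 0.099. SLC27A1, a fatty acid transporter of muscle, had 0.58 and 0.127. Of the nuclear receptors, RXRG had a change of -0.70 with 0.081, PPARA, which drives oxidation genes, 0.34 with 0.411, and PPARG 0.07 with 0.905. PPARD was well above the background on 1 array only and was not tested.

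**Figure D5:**
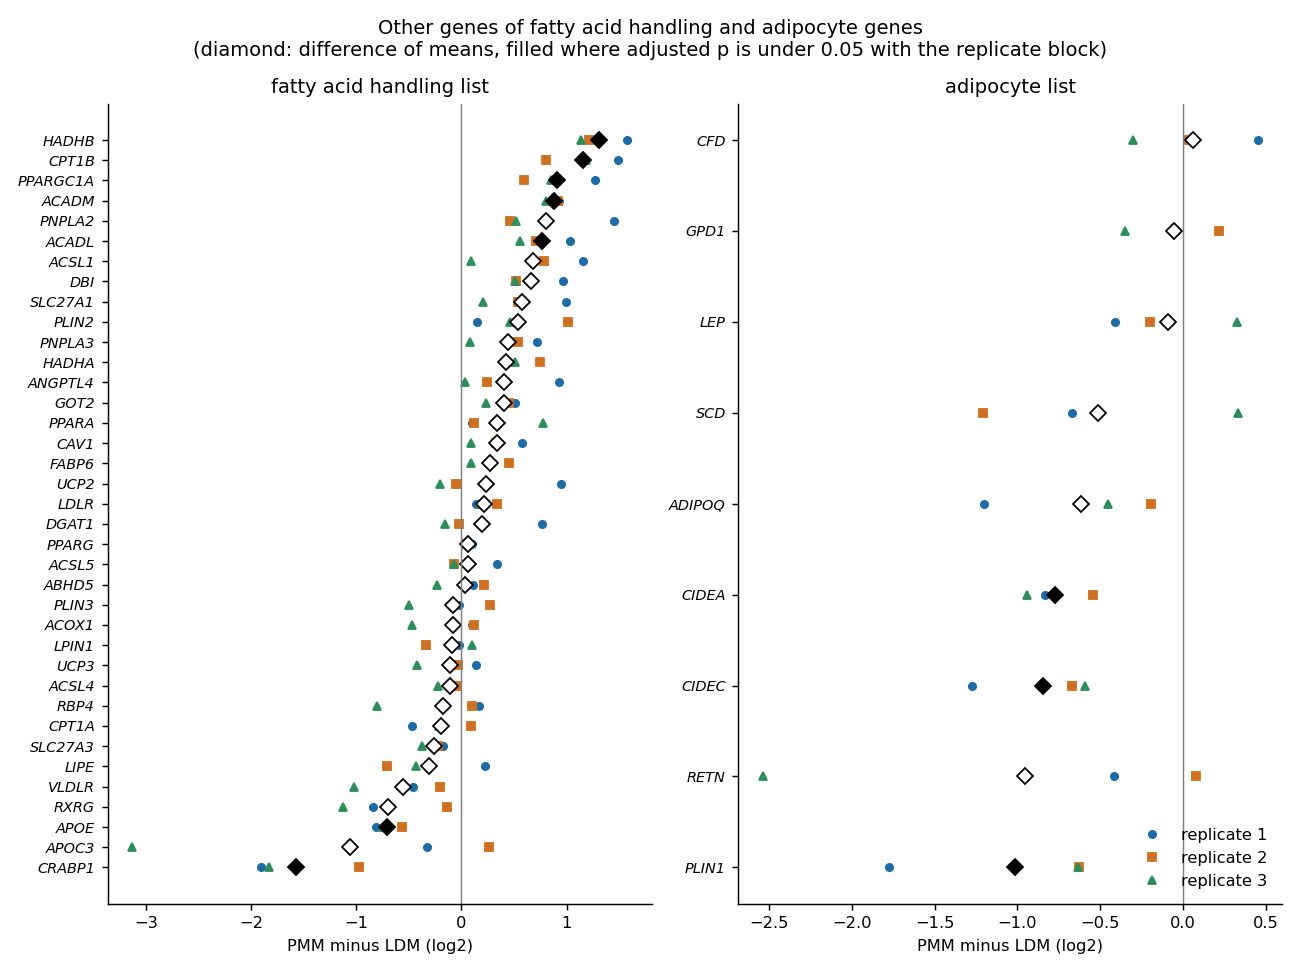
PMM minus LDM (log2) for the tested genes of the fatty acid handling list (37 genes, left) and the adipocyte list (9 genes, right). Coloured points are the 3 replicate numbers and diamonds the difference of means, filled where the limma adjusted p with the replicate block is under 0.05, which holds for 7 genes on the left and 3 on the right.

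The muscle labels were set against marker lists, since the extraction note in the labels speaks of adipose tissue. Of the skeletal muscle list, 5 of 5 measured genes had signals well above background everywhere, with a median change of 0.15 (-0.12 with normexp correction, -0.06 to 0.29 without single arrays). Its widest changes were -0.49 for CAPN3, 0.17 for DES and 0.15 for CKM. All 9 measured slow fibre genes were higher in PMM, where 49.7% of all genes were, with a median of 0.95 (8 of 9 and 0.63 without PMM replicate 1). In the blocked fit over genes 5 rose (2, 4 and 0 without replicate 1, 2 or 3, and 0 with quantile normalization). That fit called 3.95% of all genes higher. Among the 5 were the oxygen store MB (1.48), the slow calcium pump ATP2A2 (1.22) and the slow troponin TNNI1 (1.05). Of 11 fast fibre genes limma called 0 in that fit, with 2 at an unadjusted p under 0.05 and a median of 0.06 (-0.05 with quantile normalization, -0.21 to 0.18 without single arrays), and MYH2, TNNT3 and CASQ1 had changes of 0.51, 0.42 and -0.29. The part of the slow fibre genes' difference in the values of FABP3, LPL and CD36 was not tested.

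Markers of other cells were given the same way. Of 9 measured adipocyte genes 8 were lower in PMM, with a median of -0.62 (-0.99 to -0.18 without single arrays). Of all genes 49.7% were higher. With normexp correction 3 of 9 were higher and the median was -0.18. In the blocked fit over genes 3 fell, where 2.15% of all genes were called lower. They were the lipid droplet genes PLIN1 (-1.01), CIDEC (-0.84) and CIDEA (-0.77). Without replicate 1, 2 or 3 that fit called 0, 2 and 0 of the 9 genes, and with quantile normalization 0. RETN, a hormone of fat cells, had -0.96 without passing. PLIN1 was well above the background on 5 of 6 arrays and ADIPOQ, which fat cells secrete, on 6, at 3.95 to 4.73 in LDM and 2.75 to 4.53 in PMM. The linear signal summed over the probes of the adipocyte list was 510 to 725 in LDM and 514 to 720 in PMM. It was highest in replicate 1 of both muscles, where of the 9 genes only GPD1 was higher than in the mean of replicates 2 and 3. All 7 measured endothelial genes were higher in PMM, where 49.7% of all genes were, with a median of 0.40. In the blocked fit limma called 0 of them, with 2 at an unadjusted p under 0.05, and without LDM replicate 1 the median was 0.04 and without PMM replicate 3 0.10, each with 5 of 7 higher. Their summed level was 55.6 to 171 in LDM and 98.0 to 169 in PMM. ENG, CDH5 and TEK had the widest changes, 0.80, 0.47 and 0.42. The 8 macrophage genes were split evenly, with a median of -0.03, 0 called by limma with the block, 0 at an unadjusted p under 0.05, a summed level of 14.2 to 67.6 in LDM and 17.3 to 56.8 in PMM, and changes of 0.35 for C1QB, 0.17 for CD14 and -0.14 for C1QC. That split rested on single arrays, with 0 of 8 higher without LDM replicate 1 (median -0.59), 1 of 8 without PMM replicate 3 (-0.34), and 8 of 8 without LDM replicate 3 (0.61) or PMM replicate 1 (0.43). No probe was named for the 9 erythrocyte genes. LPL and FABP4 are both also made outside muscle fibres, and the part of these cells in their values was not tested.

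The genes most like FABP3 and most like FABP4 over the 6 arrays were different ones. Among 2720 named genes with signal well above background throughout, those with the highest Pearson r to FABP3 were ATP1B4 (0.994), FRAP1 (0.987), ITGB6 (0.986), AQP4 (0.985) and ATPIF1 (0.978). AQP4, a water channel of muscle and brain, had a change of 2.07, close to that of FABP3 in size. The highest r to FABP4 belonged to IQGAP1 (0.998), BIN3 (0.997), F2R (0.991), VNN2 (0.989) and IFT52 (0.989), with changes between 0.0007 and 0.27. Among the members, r to FABP3 was 0.90 for CD36, 0.83 for LPL, 0.27 for FABP5 and -0.20 for FABP4, and r to FABP4 was 0.79 for FABP5, 0.04 for LPL and 0.03 for CD36. These values describe 6 arrays of 2 muscles that share animals and scan days.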

How the data were processed

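The authors deposited Feature Extraction 10.5.1.1 output of 6 one-colour (Cy3) arrays, 3 per muscle. The deposited intensity is the processed signal, from which the software had subtracted a fitted spatial surface, with no normalization between arrays. Subtraction was not its only step. The dimmest named CD36 probe on LDM replicate 1 had a processed signal of 5740 and a mean signal of 5181. The table of values deposited for the series holds the same intensities. Here log2 of the intensity was taken and the 75th percentile of each array subtracted (583 to 872 in intensity). Control spots and 6 to 161 spots per array that the software marked as outliers were removed. A probe was tested if its 3 arrays of at least 1 muscle were marked well above background, with at least 2 values in each. limma 3.58.1 (R 4.3.3) was fitted on all such probes, and again on the brightest probe of each named gene, with Benjamini-Hochberg adjustment at 0.05. The fit on genes estimated its own variances, so its unadjusted p also differ from those over probes. The fits were tested on simulated data. Exact permutation tests were two-sided. Precision is limited by the number of arrays. A blocked fit without 1 replicate number holds 2 pairs, so its p leans on the variance that limma shares between genes.

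Of 43603 probes, 5803 were named, through RefSeq accessions, gene numbers, symbols or descriptions. Some symbols are old. No genome build is named in the files, so no coordinates are given.

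The methods take both muscles from the same animals, and deviations of arrays with the same replicate number correlated at 0.62, 0.70 and 0.56 (other pairs -0.54 to -0.01). The deviations of a muscle cancel out within a probe, so the other pairs are no independent contrast. Arrays of the same number also shared a scan day, so pairing by animal was not tested. The replicate numbers were used as a block in the alternative fit. The members and gene lists were chosen with earlier results of these data known. Named were the members, up to 12 genes of the fatty acid handling list by their p with the block, the PPAR genes, the up to 3 widest changes of each marker list, and the 5 genes most like FABP3 and FABP4. FABP1, APOC3, CIDEA and ADIPOQ were named after their values were seen, as were other genes outside this rule. Alternatives were other normalizations, background correction, detection filters, slide and replicate blocks, and leaving out arrays.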

Additional observations from a re-analysis of the deposited data

How the results depend on the processing

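All changes of FABP3, FABP5, LPL and CD36, and the difference between FABP3 and FABP4, kept their direction under the 21 alternatives run for each. Adjusted over probes, limma called FABP3 with the slide as a block (1.91, adjusted p 2.5e-05), a fit that rests on replicates 2 and 3 because replicate 1 lies on separate slides. The replicate block without replicate 1 gave 1.91. Fitted and adjusted over genes, the replicate block called FABP3 (2.17), also without replicate 1 (1.91) or 2 (2.44), and so did the slide as a block (1.91). LPL over genes was called with the replicate block (1.13) and with it without replicate 2 (1.35). FABP4 changed sign with quantile normalization (-8.4e-04, with or without the replicate block) and normexp correction (-0.068), and leaving out single arrays took it from -0.53 (without LDM replicate 1) to 0.78 (without PMM replicate 1), the negative values also arising without PMM replicate 2 or 3 (-0.22 each). It passed no threshold in any of these. The difference between the FABP3 and FABP4 changes ranged from 1.05 (without PMM replicate 1) to 2.78. Of all probes, 7 were called with quantile normalization, 9 with median centring, 1 with normexp correction, 599 with the slide as a block, 16 with the replicate block, 0 to 1 without single arrays and 601, 1 and 5 with the replicate block and replicate 1, 2 or 3 left out. Of named genes, the replicate block called 199, the slide block 120, and the replicate block 118, 143 and 0 with replicate 1, 2 or 3 left out. Why the counts moved was not tested. The replicate block changed no other member's call. Signals near the background, as of FABP1 and PPARD, limit what can be said of them.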
